A study of Mus musculus with 4 samples.

Results

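Wnt pathway genes were examined in the accessible chromatin of 3T3-L1 cells, as 56 genes chosen by symbol in GENCODE M21 out of 21,829 protein-coding genes on chromosomes 1 to 19, X and Y. They comprised 19 Wnt ligands, 12 receptors (10 Frizzled genes with Lrp5 and Lrp6), 7 R-spondin and Lgr genes, 10 secreted inhibitors, 4 cytoplasmic components and 4 nuclear factors. 3T3-L1 is an immortalised mouse line of embryonic fibroblasts, labelled as strain C57BL/6J, that can be turned into fat cells. All libraries were of this line, the labels name no treatment, genotype change or stage of differentiation, and they give the age as unknown. DNase-seq, which sequences the ends left where DNase I cut exposed DNA, gave the accessible sites. There were 2 biosamples, each with 2 technical libraries that were pooled, and each has 1 deposited list of peaks, which are windows of 150 bp, and 1 of hotspots, which are enriched regions of varying width.

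Wnt proteins are secreted, lipid-modified signals that bind a Frizzled receptor together with Lrp5 or Lrp6. Without a signal, a cytoplasmic complex built on Axin and Apc marks β-catenin (Ctnnb1) for destruction, and with a signal β-catenin accumulates and joins TCF/LEF factors on DNA. R-spondins and their Lgr receptors strengthen the signal by removing ubiquitin ligases that clear Frizzled from the cell surface, and Sfrp, Dkk and Wif proteins weaken it outside the cell. In preadipocytes, Wnt signalling, with Wnt10b as the best studied ligand, is known for holding back fat cell formation.

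Biosample 1 had 298,793 peaks and biosample 2 had 97,430, so the former list was 3.07 times as long. Read depth was unknown, and each biosample had 1 list of pooled libraries, so there was no spread between replicates to test a difference against. Whether they were separate cultures is not stated in the labels. The score of a peak is the authors' own value, a whole number up to 150, and was read as a percentile within its list. Of 11 marker genes of fibroblasts and preadipocytes, 10 had a peak near a start site in both lists, and Dlk1 had it in biosample 1 only. The 3 epithelial markers (Cdh1, Epcam and Krt18) and the 3 blood markers (Ptprc, Cd3e and Cd79a) had none, while of the endothelial markers Pecam1 and Cdh5 had one in both lists and Kdr had none.

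A gene counted as open if each list had a promoter peak, that is a peak within 1000 bp of any start site of its protein-coding transcripts. A gene without a peak may still be accessible below the authors' threshold. The strongest biosample 1 promoter peaks of members that led their role, and of Lef1, are shown on the gene's strand, 5′ to 3′, without the bases of annotated untranslated regions. Capitals mark CCAAT boxes, the site of NF-Y (CCAAT or ATTGG), and GC boxes, the site of SP and KLF factors (GGGCGG or CCGCCC). The positions in mm10 were chr2:109917496-109917645 (plus strand) for Lgr4, chr10:121033436-121033585 (plus) for Wif1, chr17:26138476-26138625 (plus) for Axin1, chr19:55741736-55741819 (plus) for Tcf7l2, which ends at the base before its most upstream start site, and chr3:131112356-131112505 (plus) for Lef1. The Lef1 peak was centred in an intron of its gene and the other stretches lay upstream of their genes.
Lgr4: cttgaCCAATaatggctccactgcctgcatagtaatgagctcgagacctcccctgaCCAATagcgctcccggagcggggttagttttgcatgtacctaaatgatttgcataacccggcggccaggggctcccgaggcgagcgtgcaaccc
Wif1: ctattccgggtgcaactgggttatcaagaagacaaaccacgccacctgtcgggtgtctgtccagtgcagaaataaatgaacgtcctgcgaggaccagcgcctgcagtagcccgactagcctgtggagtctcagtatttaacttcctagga
Axin1: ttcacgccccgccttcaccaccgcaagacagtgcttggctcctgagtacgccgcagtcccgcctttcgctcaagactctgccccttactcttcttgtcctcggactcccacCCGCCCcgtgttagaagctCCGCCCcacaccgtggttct
Tcf7l2: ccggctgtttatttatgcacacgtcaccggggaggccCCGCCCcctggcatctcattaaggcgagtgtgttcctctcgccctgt
Lef1: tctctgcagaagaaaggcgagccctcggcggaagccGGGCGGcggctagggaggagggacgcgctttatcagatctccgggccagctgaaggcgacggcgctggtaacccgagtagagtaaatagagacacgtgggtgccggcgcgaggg
The Lgr4 stretch held 2 CCAAT boxes and that of Axin1 held 2 GC boxes. That of Wif1 held neither. In 200 bp windows centred on shared promoter peaks, a CCAAT box was found in 14 of 41 windows at member promoters (34.1%, 95% Wilson interval 21.6 to 49.5) and in 29.3% of 18,646 windows at all promoters. A GC box was found in 41.5% (27.8 to 56.6) and 43.9%. The intervals of the members held the values of all promoters for both boxes, which were searched after the sequences had been seen. All intervals cover counting error only.

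Distal accessible sites are shown for the 4 shared peaks in the members' surroundings that ranked first by their number of TCF/LEF matches and then by score, as windows of 200 bp centred on the peak. Capitals mark TCF/LEF matches (CTTTGAT or CTTTGAA) and AP-1 matches (TGACTCA or TGAGTCA) on either strand. They lay at chr7:112202291-112202490 (minus strand) near Dkk3, at chr11:102643951-102644150 (plus) near Fzd2, at chr19:3692551-3692750 (minus) upstream of Lrp5, all between genes, and at chr19:55875671-55875870 (plus) in an intron of Tcf7l2.
Dkk3: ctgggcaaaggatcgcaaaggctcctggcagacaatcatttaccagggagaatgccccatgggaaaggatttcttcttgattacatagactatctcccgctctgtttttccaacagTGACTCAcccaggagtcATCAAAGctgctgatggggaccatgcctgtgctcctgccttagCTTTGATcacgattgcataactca
Fzd2: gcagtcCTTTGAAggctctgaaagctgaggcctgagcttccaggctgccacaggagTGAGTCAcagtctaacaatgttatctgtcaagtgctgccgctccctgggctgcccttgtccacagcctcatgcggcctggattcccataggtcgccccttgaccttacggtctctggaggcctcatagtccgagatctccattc
Lrp5: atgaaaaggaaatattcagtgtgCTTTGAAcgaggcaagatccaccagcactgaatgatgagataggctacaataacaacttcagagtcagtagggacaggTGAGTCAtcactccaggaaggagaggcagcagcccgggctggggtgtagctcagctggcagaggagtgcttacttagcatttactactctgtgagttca
Tcf7l2: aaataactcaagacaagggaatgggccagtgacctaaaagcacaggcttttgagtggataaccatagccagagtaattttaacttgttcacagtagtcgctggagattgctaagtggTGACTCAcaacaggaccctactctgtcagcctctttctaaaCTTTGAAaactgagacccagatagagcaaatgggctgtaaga
The Dkk3 window held 2 TCF/LEF matches and the others 1 each, and each of the 4 also held 1 AP-1 match. The peaks, which were chosen in part by their biosample 1 score, had scores of 140 and 80 in biosamples 1 and 2 for the site near Dkk3, 146 and 87 near Fzd2, 130 and 59 upstream of Lrp5, and 128 and 41 in Tcf7l2. A site near Lrp6 with 1 TCF/LEF match and no AP-1 match tied with that of Tcf7l2 in biosample 1 and is not shown. An AP-1 match lay in 26.0% of all such windows around members and in 29.7% of those around all shared distal peaks. Whether the motifs occur together was not tested. The protein-coding start site nearest to the peak was that of Mical2 for the site near Dkk3 and that of Meioc for the site near Fzd2. A match is a description of the letters and not a sign of binding.

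Receptors and intracellular components were mostly open in these cells, and ligands, R-spondins and secreted inhibitors mostly lacked an accessible promoter. In all, 22 of the 56 genes were open (39.3%), against 51.8% of all protein-coding genes. A promoter peak was found only in biosample 1 for 5 more genes (Wnt1, Wnt5b, Lrp5, Sfrp4 and Frzb), only in biosample 2 for 0, and in neither list for 29. Over all 21,829 protein-coding genes these counts were 2349, 22 and 8140. Thus 27 of 56 had one in biosample 1 (48.2%, against 62.6% of all genes) and 22 in biosample 2 (39.3%, against 51.9%). By role, 5 of 19 ligands, 8 of 12 receptors, 2 of 7 R-spondin and Lgr genes, 1 of 10 secreted inhibitors, 3 of 4 cytoplasmic components and 3 of 4 nuclear factors were open. When the lists were limited to their stronger 50%, 46.2% of all genes and 17 members were open, among them 0 ligands and the same 8 receptors as before.

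**Figure D1:**
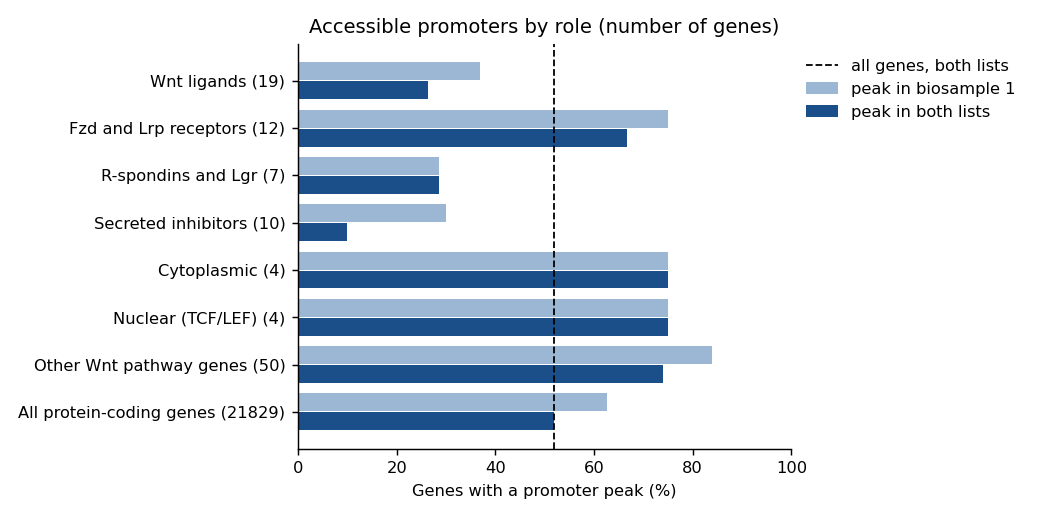
Share of genes with a promoter peak by role, in percent, in biosample 1 (light bars) and in both lists (dark bars), with the number of genes in brackets and the share of all protein-coding genes open in both lists as a dashed line at 51.8%. The dark bars of ligands (26.3%), R-spondin and Lgr genes (28.6%) and secreted inhibitors (10.0%) end to the left of the line, and those of receptors (66.7%), cytoplasmic and nuclear genes (75% each) to the right. The line covers genes of any CpG content. All receptors and nuclear factors had CpG-rich promoters (defined below), of which 80.2% were open over all genes.

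Closed promoters were frequent among members with CpG-rich promoters, a kind that is usually accessible. A promoter was called CpG-rich when the CpG ratio, observed over expected, came to 0.6 or more across 1000 bp around the start site that lies furthest upstream. Of the 42 CpG-rich members 20 were open (47.6%), against 80.2% of all genes with CpG-rich promoters, and of the 14 CpG-poor members 2 were open, Wnt7b and Ctnnb1, against 27.1%. For Ctnnb1, and for Wnt11 among the CpG-rich ones, the ratio was taken at a start site without a peak. Their promoter peaks lay at other start sites, where the ratio was not measured. No peak in either list was found at 19 of the 42 CpG-rich members (45.2%), against 13.4% of all CpG-rich genes. These were 8 of 13 CpG-rich ligands, 3 of 12 receptors, 3 of 5 R-spondin and Lgr genes, 3 of 5 secreted inhibitors, and Axin2 and Tcf7. Every receptor and nuclear factor had a CpG-rich promoter. Of the 12 receptors 8 were open (66.7%), of the 4 nuclear factors 3 (75%), and of the 3 CpG-rich cytoplasmic components 2. These shares were below the 80.2% of all CpG-rich genes, though above the share of all genes. They rest on 12, 4 and 3 genes, too few to set them apart from either share, and no test was made.

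Ligand promoters that were open had weak peaks in the shorter list. Wnt5a, a ligand best known for signalling without β-catenin, led them with scores of 112 in biosample 1 and 32 in biosample 2, at percentiles 84.0 and 48.3. Its peak at chr14:28505376-28505525 (plus strand) was centred 701 bp downstream of the start site in an annotated untranslated region. Within 15 kb of that start site lay 18 peaks of biosample 1, of which 9 were shared, and 16 peaks of biosample 2, of which 12 were shared. Some of these biosample 2 windows overlapped one another, so they were not all separate sites, and none ranked above percentile 57.3. Wnt7b, active in epithelial branching and bone, had 111 and 24 at chr15:85583176-85583325, centred 778 bp upstream of its start site. Wnt11, a ligand of cell movement in the embryo, had 103 and 23 at chr7:98838016-98838165, at the third of its start sites only. Wnt7a, which patterns the limb, had 94 and 25, and Wnt9a, a ligand of joints, had 78 and 20. The median percentile of the strongest promoter peak was 78.8 over the 7 ligands with a peak in biosample 1 and 30.8 over the 5 in biosample 2, where all genes with a promoter peak had medians of 94.2 and 86.4. Wnt5b, a close relative of Wnt5a, had the highest ligand score of biosample 1, 117 at percentile 86.7, with no promoter peak in biosample 2. Wnt1, the founding member of the family, had 69 in biosample 1 alone.

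The other 12 ligands (Wnt2, Wnt2b, Wnt3, Wnt3a, Wnt4, Wnt6, Wnt8a, Wnt8b, Wnt9b, Wnt10a, Wnt10b and Wnt16) had no promoter peak, but several had shared peaks somewhat further out. Wnt10b had its nearest peaks 2086 bp upstream of the start site in biosample 1 (score 132, percentile 93.8) and 2126 bp upstream in biosample 2 (46, percentile 70.3). Wnt6, which like Wnt10a and Wnt10b is known to hold back fat cell formation, had a peak 1304 bp downstream in both lists, in an intron of its gene, with scores of 126 and 40. Wnt10a had peaks at 3391 and 3411 bp upstream with scores of 103 and 52. The sites of all 3 were shared between the lists. Wnt3a had a shared peak 3004 bp upstream (94 and 24). The percentiles in biosamples 1 and 2 were 91.1 and 62.0 for Wnt6, 78.8 and 77.1 for Wnt10a and 73.2 and 30.8 for Wnt3a. Shared distal peaks in the members' surroundings had medians of 83.4 and 52.0. For Wnt2 the distances were 4100 bp in biosample 1 and 48,151 bp in biosample 2, and for the other 7 they ran from 2966 to 8355 bp and from 3248 to 9035 bp. The nearest sites of Wnt10b, at chr15:98780236-98780385 (minus strand), and of Wnt6, at chr1:74773196-74773345 (plus strand), are shown to set them beside that of Axin2 at chr11:108925356-108925505 (plus strand, in an intron of its gene), the gene most widely used as a readout of β-catenin signalling. They hold no TCF/LEF or AP-1 match, and CCAAT and GC boxes were neither counted nor marked in them.
Wnt10b: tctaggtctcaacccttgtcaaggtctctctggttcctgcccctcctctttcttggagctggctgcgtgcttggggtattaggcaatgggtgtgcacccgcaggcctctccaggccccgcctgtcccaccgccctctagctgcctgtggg
Wnt6: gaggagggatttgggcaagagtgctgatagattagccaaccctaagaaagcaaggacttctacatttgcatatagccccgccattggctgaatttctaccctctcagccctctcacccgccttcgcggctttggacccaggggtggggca
Axin2: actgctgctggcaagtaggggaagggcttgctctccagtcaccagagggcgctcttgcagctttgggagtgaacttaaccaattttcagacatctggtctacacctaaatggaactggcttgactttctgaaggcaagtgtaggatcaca
These 3 sites were picked after their values had been seen.

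**Figure D2:**
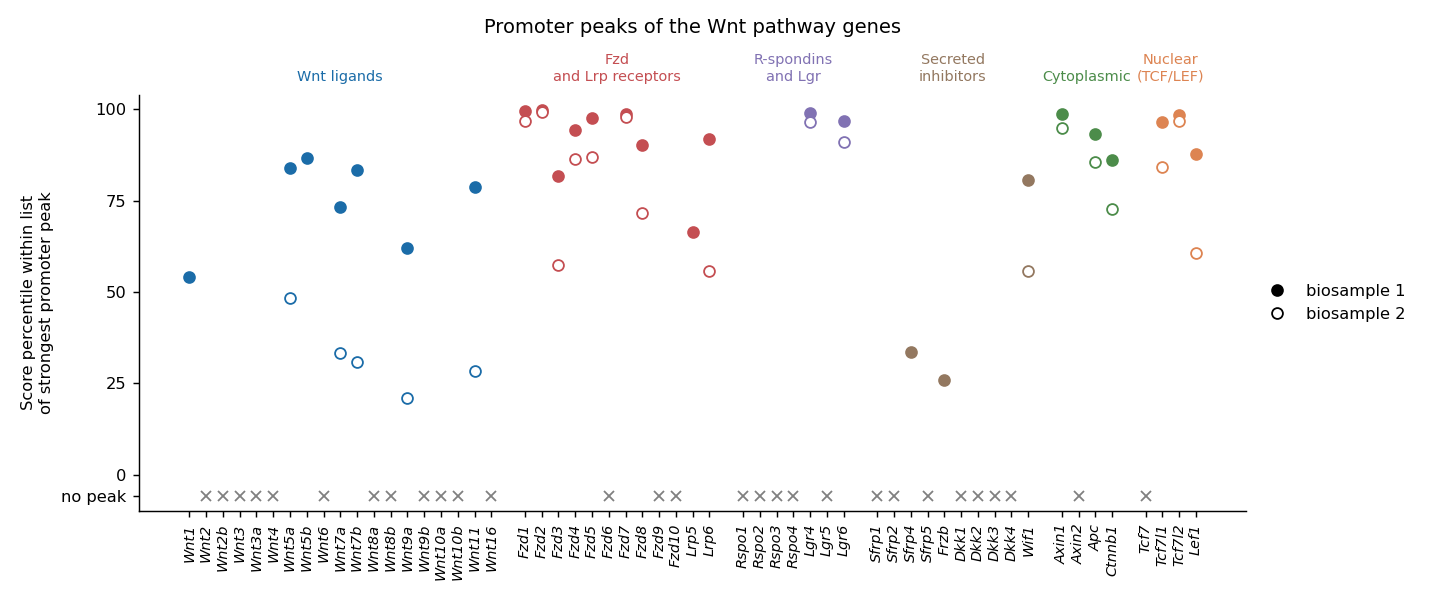
Score percentile of the strongest promoter peak of each member within its list, in biosample 1 (filled circles) and biosample 2 (open circles), grouped by role, with crosses for members without a promoter peak in either list. The open circles of the ligands lie at 48.3 or below, while those of Fzd1, Fzd2, Fzd7, Lgr4 and Tcf7l2 lie above 96.

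Frizzled genes, which encode the receptors that bind Wnt, included the strongest promoter peaks of all members. Fzd2 had scores of 149 and 100 in biosamples 1 and 2, at percentiles 99.9 and 99.2. Fzd7 had 144 and 90 at chr1:59481916-59482065, centred 433 bp upstream, and Fzd1 had 147 and 86 at chr5:4758036-4758185, centred 76 bp upstream. All 3 ranked above percentile 96 in both lists. Fzd5 (141 and 64), Fzd4 (133 and 63), Fzd8 (124 and 47) and Fzd3 (108 and 37) were open as well, so that 7 of 10 Frizzled genes were open. Fzd6, Fzd9 and Fzd10 had no promoter peak, and the nearest peaks of Fzd10 lay 28,879 bp from its start site in biosample 1 and 85,199 bp in biosample 2. The co-receptor genes differed between the lists. Lrp6 had peaks in both (128 and 36), and Lrp5 had 5 promoter peaks in biosample 1 with a top score of 84 and 0 in biosample 2.

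Lgr4 and Lgr6 were the only open genes among the Lgr receptors and R-spondins, which tune the level of Frizzled at the cell surface. Lgr4, with the peak shown above, had scores of 145 and 85, at percentiles 99.0 and 96.6. Lgr6 had 139 and 71 at chr1:135016976-135017125, but these stood at the downstream of its 2 start sites, at 135,017,779 on chromosome 1, and the upstream one at 135,105,276 had 122 and 36. Lgr5, a target of the pathway that marks stem cells in other tissues, had no promoter peak, and its nearest peaks lay 1048 bp away in biosample 1 with a score of 38, at percentile 11.8, and 29,776 bp away in biosample 2. All 4 R-spondin genes lacked a promoter peak, with the nearest ones 2085 to 13,482 bp away in biosample 1 and 2802 to 23,689 bp in biosample 2.

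Of the 10 secreted inhibitors 1 was open. Wif1, which binds Wnt proteins, was that gene, with scores of 106 and 36 at percentiles 80.6 and 55.6. Sfrp4 (52) and Frzb (47), decoys with a Frizzled-like domain, had a peak in biosample 1 alone, in the lower part of that list at percentiles 33.7 and 25.9. Sfrp1, Sfrp2, Sfrp5 and the 4 Dkk genes, whose products block Lrp5 and Lrp6 with the exception of Dkk3, had no promoter peak. Around Sfrp1 the nearest peaks lay 19,537 and 67,057 bp away, whereas the nearest peak of Dkk1 lay 5071 bp upstream in both lists with scores of 108 and 33. Dkk2 and Dkk4 had a biosample 1 peak 1027 and 1038 bp away, just outside the window.

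Most of the destruction complex and the nuclear factors were open. Axin1, the scaffold of the complex, had scores of 144 and 79 at percentiles 98.6 and 94.7, and Apc had 131 and 62. Ctnnb1 had 116 and 48 at chr9:120933316-120933465, among a group of 3 start sites at 120,933,400 to 120,933,818 on chromosome 9, with no peak at its most upstream one. Axin2, the second scaffold and a feedback target, had no promoter peak. Its nearest peak, shown above, lay 2175 bp from a start site in biosample 1 (score 61, percentile 45.7) and 2155 bp in biosample 2 (13, percentile 5.57), and it was the only peak of either list within 15 kb of the most upstream start site. Among the nuclear factors, Tcf7l2 had 143 and 86, at percentiles 98.3 and 96.9, and Tcf7l1, which mainly represses targets, had 138 and 60 at chr6:72789216-72789365. Lef1 was open at both of its start sites, with 108 and 39 at the upstream one and 119 and 26 at the downstream one. Tcf7, a feedback target like Lef1, had its nearest peaks 9706 and 9726 bp downstream, with 105 and 28.

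**Figure D3:**
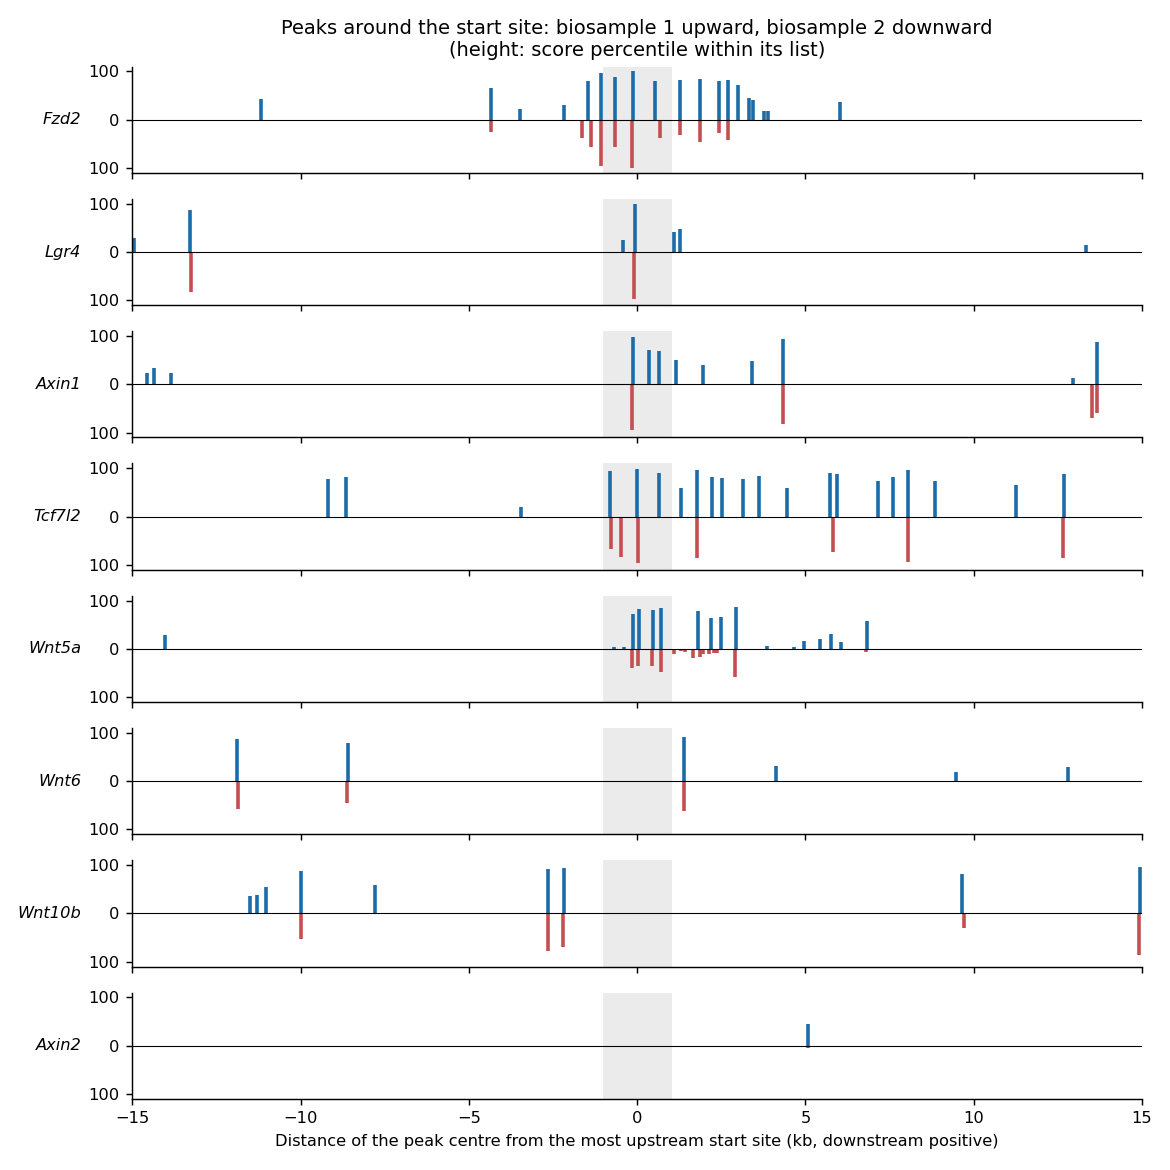
Peaks within 15 kb of the most upstream start site of 8 members, with distance in kb on the horizontal axis (downstream positive), biosample 1 above the line in blue and biosample 2 below it in red, bar height as the score percentile within the list, and the 1000 bp on either side of the start site in grey. Fzd2, Lgr4, Axin1 and Tcf7l2 have tall bars in the grey band in both lists, Wnt5a has many short ones in biosample 2, Wnt6 and Wnt10b have theirs outside it, and Axin2 has 1 in each list.

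Away from promoters, the ligand loci were rich in accessible sites although most of their promoters were closed. Distal peaks, over 1000 bp from every protein-coding start site, were counted in each gene body with 50 kb on either side, and were called shared when they met a peak of the other list by at least 1 bp. The members had a median of 7 shared distal peaks, or 4.93 per 100 kb, against 5 and 3.63 for all genes, and 37 of 56 lay above the all-gene median per 100 kb. Of the ligands 18 of 19 did, with a median of 6.52 per 100 kb, and Wnt2 (2.12) was the exception. The medians were 3.84 for receptors, 3.60 for R-spondin and Lgr genes, 2.53 for secreted inhibitors, 4.21 for cytoplasmic and 6.24 for nuclear genes. Ligands that were not open had a median of 6.26 and those that were open 6.79, whereas over all genes the medians were 2.59 and 4.33. Frizzled genes had the opposite arrangement, with 7 of 10 open and a median of 2.36. The number of other protein-coding genes in the windows had a median of 2 for ligands, 1 for Frizzled genes and 3 for all genes.

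Some of these counts were of the same sites. The windows of 4 pairs of ligand genes overlapped, and 8 shared distal peaks lay in the windows of both Wnt1 and Wnt10b, 5 in those of Wnt3 and Wnt9b, 7 in those of Wnt3a and Wnt9a and 6 in those of Wnt6 and Wnt10a. Counted only where the member's own start site was the nearest, ligands had a median of 3.16 per 100 kb, Frizzled genes 1.70 and all genes 0.922.

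**Figure D4:**
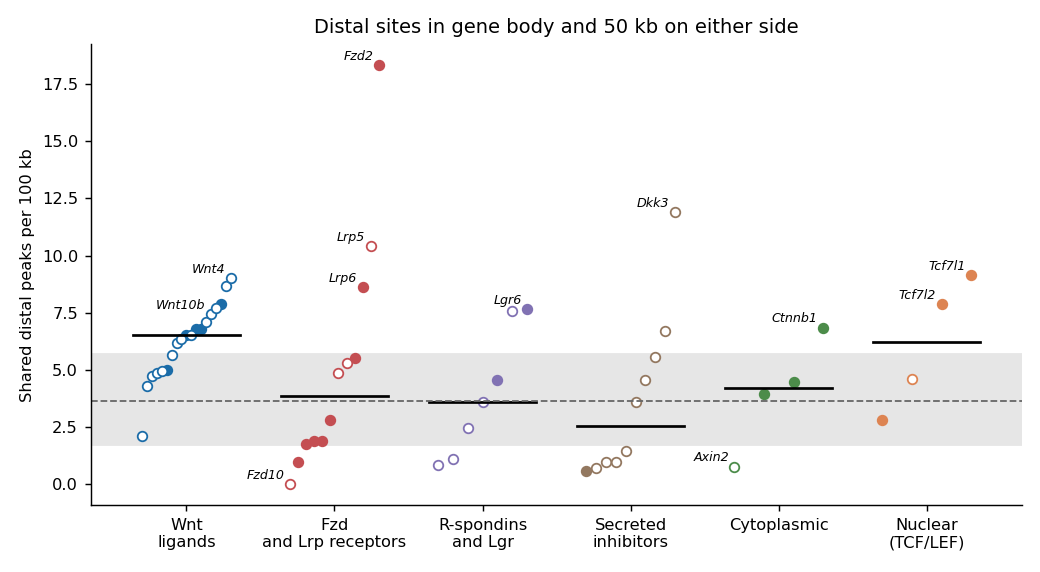
Shared distal peaks per 100 kb of gene body with 50 kb on either side, 1 point per member by role, filled where the promoter was open and empty where it was not, with the role's median as a black line and the median (3.63, dashed) and quartiles (1.73 to 5.71, grey) of all protein-coding genes. Ligands cluster at 4.29 and above apart from Wnt2, and Fzd2 stands highest at 18.3.

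Tcf7l1, Tcf7l2 and Lrp5 had the most shared distal peaks of the 56 members. Tcf7l1 had 24, of which 17 were intronic and 11 had a start site of Tcf7l1 as the nearest. Tcf7l2 had 23, of which 16 were intronic and all 23 had a start site of Tcf7l2 as the nearest. Lrp5 had 21, 12 of them intronic, although its promoter had no biosample 2 peak, and Lrp6 and Fzd2 had 19 each. In the compact window of Fzd2 this was 18.3 per 100 kb, and for 8 of the 19 Fzd2 was the nearest gene. Dkk3, with no promoter peak in either list, had 17, or 11.9 per 100 kb, and it was the nearest gene for 11 of them. Among ligands Wnt3a and Wnt4 led with 11 each, followed by Wnt5b, Wnt7a, Wnt7b and Wnt9a with 10 each. Lgr6 had 17, Rspo4 had 10, and Rspo2 and Lgr4 had 9 each. After Dkk3, the inhibitors Sfrp5 and Dkk2 had 7 each. Ctnnb1 had 9, Apc 8 and Axin1 7, and the nuclear factors Tcf7 and Lef1 had 6 each. At the other end, Fzd10 had 0, and Axin2, Wif1, Dkk1, Dkk4, Sfrp1 and Fzd1 had 1 each, so Fzd1 combined a promoter at percentile 99.5 of biosample 1 with a nearly bare surrounding. Summed over members, 151 of the 422 shared distal peaks lay upstream of the gene, 127 in introns, 134 downstream and 10 in exons.

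The share of distal peaks found in both lists was near that of all distal peaks. In the joined windows of all members 396 of 1296 distal peaks of biosample 1 met a peak of biosample 2 (30.6%, 28.1 to 33.1), against 27.9% of all distal peaks, a value just below that interval. With biosample 1 cut to the length of biosample 2 these shares were 80.0% and 76.9%. In the other direction it was 399 of 418 (95.5%, 93.0 to 97.1) against 94.7%. The windows held 1238 hotspots of biosample 1 and 491 of biosample 2, with median widths of 286 and 271 bp against 272 and 273 bp over all hotspots. The widest was 8715 bp long, in the window of Tcf7l2 in biosample 1, and in biosample 2 it was 2058 bp long, in that of Fzd2.

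TCF/LEF sequences were found at the members' distal sites at a share near that of all distal sites. A match lay in 23 of 396 windows of 200 bp centred on shared distal peaks (5.81%, 3.90 to 8.56) and in 6.59% of all 72,124 such windows. AP-1, the site of Fos and Jun proteins, had 26.0% (21.9 to 30.5) against 29.7%, and TEAD, the Hippo effector (CATTCCA or CATTCCT), had 16.4% (13.1 to 20.4) against 14.5%. RUNX (TGTGGT) had 23.0% (19.1 to 27.4) against 23.3%, and CTCF had 10.6% (7.94 to 14.0) against 9.52%. C/EBP, the site of early regulators of fat cell formation, was found in 2 windows (0.505%, 0.139 to 1.82) against 1.43%. The intervals of these 6 motifs held the values of all windows. The GC box had 7.83% (5.57 to 10.9) against 5.54%, a value just below the interval, and the CCAAT box 20.5% (16.8 to 24.7) against 24.2%. At promoters, 3 of the 41 member windows held a TCF/LEF match, those of Tcf7l2, Lrp6 and Ctnnb1 (7.32%, 2.52 to 19.4), against 3.67% of all promoter windows. In RefSeq promoter sequences (GRCm38.p6, from 250 bases before to 50 bases after a start site) 3 of 46 promoters of 37 members held a match, at Dkk1, Wnt11 and Wnt5b (6.52%), against 8.65% of all 32,851. All motifs were searched on both strands, and none of them contains another.

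**Figure D5:**
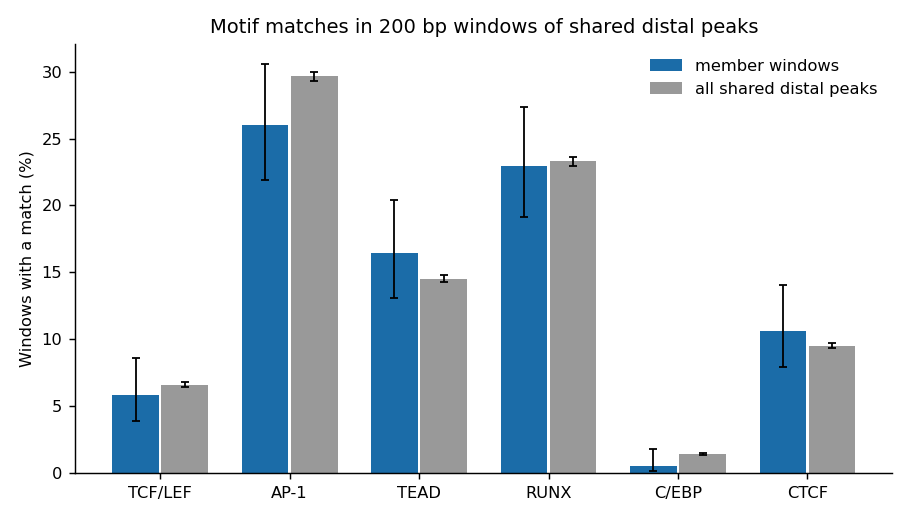
Share of 200 bp windows centred on shared distal peaks with a motif match, in percent, for the 396 windows around members (blue) and all 72,124 windows (grey), with 95% Wilson intervals as error bars. The blue intervals hold the grey values for all 6 motifs, TCF/LEF among them at 5.81% and 6.59%.

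Other genes of the pathway, a list of 50, were open in 37 cases (74.0%, beside 39.3% of the members and 51.8% of all genes). Of the 40 with a CpG-rich promoter 31 were open (77.5%, near the 80.2% of all such genes). The cytoplasmic ones were open in 13 of 16, led by Gsk3b, the kinase that marks β-catenin for destruction, at percentile 99.9 of both lists. The nuclear cofactors were open in 7 of 9, with Tle4, a corepressor of TCF factors, at percentiles 99.0 and 95.4 and the coactivator Bcl9l at 98.6 and 95.7. Planar polarity genes were open in 6 of 8, ligand processing genes in 2 of 3, cell surface genes in 7 of 12, and the targets Myc and Ccnd1 were both open. The cell surface class included Sost and Sostdc1, whose products are secreted. Wls, the carrier that takes Wnt proteins to the cell surface, had percentiles of 96.4 and 90.1, and Porcn, which attaches their lipid, had 84.5 and 28.4. Ryk, Dact1, Pygo1, Tle2 and Celsr1 had their promoter peak only in biosample 1. The 8 without a peak were Notum, Ror2, Kremen2, Sost, Sostdc1, Nkd1, Nkd2 and Celsr2. The feedback ligase genes Znrf3 (94.2 and 77.1) and Rnf43 (82.9 and 55.6) were open.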

How the data were processed

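DNase-seq of 3T3-L1 cells was used, from 4 libraries grouped by biological replicate number. Per the labels, the coordinates are in mm10. The deposited peak lists hold a score per peak, which the labels do not define, and the deposited hotspot lists hold −log10 q values capped at 100. The lists pool both libraries of a biosample. The aligner and peak caller are not named in the labels. The lists hold no read counts, so the depth is unknown.

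Genes, start sites and untranslated regions came from GENCODE M21 and sequences from RefSeq's GRCm38.p6, the build of mm10. Scores were turned into midrank percentiles within a list. Interval functions were checked on simulated intervals. Shares have 95% Wilson intervals. With 1 pooled list per biosample no test between groups was made, and counts stand beside the same count over all genes. Python 3.11.15, numpy 2.4.6, pandas 2.3.3 and scipy 1.17.1 were used.

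The members and the lists of other pathway genes and markers were chosen with earlier results of these data known. By rule, peaks were given for the 3 members of each role with the highest mean percentile and for Axin2, Lef1, Tcf7, Lgr5 and Wnt10b, distal counts for the 3 of each role with the most, and distances for members without a promoter peak. Sequences of members on chromosome 18 were not printed, and the promoter sequence of the leading receptor is not reported here. Peaks on other scaffolds entered the percentiles only.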

Additional observations from a re-analysis of the deposited data

How the results depend on the processing

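The number of open members (22) ranged from 17 to 27 over 9 alternatives, and stayed below the share of all genes in each. A window of 500 bp lost Wnt7b, Wnt9a and Wnt11, leaving 2 open ligands, the stronger 50% of each list left 0, and a window of 2000 bp added Wnt1, Wnt6 and Sfrp4, which made 2 secreted inhibitors. Biosample 1 alone gave 3 of those. Shared distal peaks per member had a median of 2 with 10 kb on either side, 11 with 100 kb and 3 where the member's start site was the nearest. With biosample 1 cut to the length of biosample 2, 80.0% of its distal peaks near members were shared, against 76.9% of all. TCF/LEF matches were found in 3.79% of the peaks as deposited, 11.4% of windows of 400 bp and, for CTTTGAT only, 2.02%, against 4.76%, 14.5% and 2.45% of all distal peaks. With CpG ratios of at least 0.5 and 0.75, chosen after seeing the data, 20 of 46 (43.5%) and 13 of 26 CpG-rich members were open, against 77.6% and 84.1% of all such genes. Receptor counts stayed at 8 or 9. No paired analysis was possible because each biosample has 1 pooled list and no result comes from a test. A gene with a peak in biosample 1 alone may lack it in the shorter list for want of depth, which was not tested.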

Other observations

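For some members without a promoter peak, the nearest peak lay far from the start site. Fzd9, with a CpG ratio of 0.92, had its nearest peak 12,125 bp away in both lists, with scores of 38 and 12 at percentiles 11.8 and 4.07. Sfrp1, with a ratio of 1.04, had 1 shared distal peak in its gene body with 50 kb on either side, and Rspo4, at 0.58, had its nearest biosample 1 peak 13,482 bp away while 10 shared distal peaks lay in its window. Wnt16 had no promoter peak and its nearest biosample 1 peak lay 3295 bp away. The biosample 2 peak nearest to it, 7542 bp upstream, had a score of 89 at percentile 97.6 of that list. These genes were picked after their values had been seen.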
